A study of Drosophila melanogaster with 24 samples.

Results

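The comparison set neuroblasts of the antennal lobe (AL) lineage at 50 h after larval hatching against the same lineage at 36 h, a step in the middle of larval life of Drosophila melanogaster. Members were all gene rows of the deposited count table in the 6 libraries of these 2 ages, out of 24 libraries in the series. The table held 15339 genes, and 10324 of them passed the filter on low counts and were tested. The 50 h group and the 36 h group held 3 libraries each. Every library came from age-matched larvae grown at 25 °C and hatched within 2 h of each other, per the labels. About 30 brains were dissected, digested with proteases for 30 min, and cells carrying green fluorescent protein (GFP) were picked by a robotic sorter and pooled to about 100 cells. The pools held 106, 115 and 121 cells at 50 h, and 112, 118 and 110 cells at 36 h. For the fly strain and the driver that labels the neuroblasts the sources used here give no name, so no genotype can be attached to either age. AL libraries of 24 h and 84 h larvae, 3 each, are used below for the levels before and after the step.

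Neuroblasts are the stem cells of the fly brain. Each one divides asymmetrically, renews itself and makes neurons of changing identity as the animal ages. In larval neuroblasts age is read from 2 RNA-binding proteins that run in opposite directions, Imp, which is high early, and Syp, which is high late, and the fates of the neurons follow their levels. The steroid hormone ecdysone, which drives moulting, acts on neuroblasts in mid-larval life through its receptor EcR, and the transcription factors Broad (br) and E93 (Eip93F) are among its known targets. The series was made to follow such age-dependent genes, and the question of the 36 h to 50 h step is which genes change across this middle window.

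Total gene counts were 7.77 to 8.95 M (mega-counts) at 50 h against 6.59 to 9.27 M at 36 h, and 10677 to 11413 genes had a count in a library. Levels are given as counts-per-million (CPM) after TMM scaling, with n = 3 libraries per age throughout. The upper limit for a gene with no count, 3 counts, equals 0.39 to 0.449 CPM at 50 h against 0.36 to 0.525 CPM at 36 h on this scale, and this limit covers counting error only. Log2 CPM values correlated across genes at 0.92 to 0.941 between libraries of the same age and at 0.91 to 0.934 between the ages, and genes are not independent replicates. No library of the 6 stood apart by this measure. Spike-in RNA took 0.388% to 0.469% of counts at 50 h and 0.506% to 0.585% at 36 h. Gene counts per spike-in count and cell were 2.2, 1.85 and 2.12 at 50 h, against 1.76, 1.44 and 1.64 at 36 h, so every 50 h pool had more gene counts per cell by this measure.

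The markers of the labelled cell type were present at both ages. The 7 neuroblast markers summed to 3088 to 3491 CPM at 50 h against 2717 to 3050 CPM at 36 h. None was called between the ages by the edgeR quasi-likelihood test, 4 had an unadjusted p under 0.05, and DESeq2 and limma each called 1, dpn, higher. dpn, a bHLH repressor that keeps neuroblasts self-renewing, had 657, 670 and 560 CPM at 50 h, against 340, 546 and 369 CPM at 36 h (edgeR quasi-likelihood adjusted p = 0.083). esg moved the other way, with 20.8, 17.2 and 20.4 CPM at 50 h, against 44.8, 35.9 and 47.8 CPM at 36 h. Its adjusted p by the same test was 0.13. Of the 7 markers 3 lay above at 50 h without overlap and 2, esg and wor, below. Over all tested genes these shares were 9.85% and 9.41%. Of the 16 neuron markers, the amyloid-precursor homologue Appl alone was called, higher at 50 h, and 15 of the 16 had a positive log2 fold change, with a median of 0.635 against 0.01 over all tested genes. This median was 0.335 without 36 h replicate 1, 0.376 without 50 h replicate 2 and 1.065 without 36 h replicate 3. The list summed to 800 to 876 CPM at 50 h against 700 to 733 CPM at 36 h, without overlap. Appl lost its call in 4 of the 6 fits that leave out 1 library (without 36 h replicate 1 or 2, or 50 h replicate 1 or 3, with adjusted p of up to 0.228). None of the 10 glia markers was called (2 at an unadjusted p under 0.05, none by DESeq2 or limma), with sums of 565 to 597 CPM at 50 h against 506 to 589 CPM at 36 h. nrv2 alone gave 371, 332 and 323 CPM of the sums at 50 h and 359, 296 and 322 CPM at 36 h. The list's median log2 fold change was -0.245, with 5 of the 10 positive. gcm had 1 count over the 50 h libraries and 38 over those of 36 h, with 4.8, 0.35 and 0 CPM at 36 h. repo, the defining glial transcription factor, had 1 count over the 50 h libraries and 55 over those of 36 h, and it overlaps CG7156 on the other strand, which had 2.05 times its counts. The 6 haemocyte markers in the table, of which 5 were tested, summed to 20 to 37.7 CPM at 50 h against 14.7 to 19.1 CPM at 36 h, and the 6 fat body markers, of which 4 were tested, to 5.2 to 16.1 CPM at 50 h against 3.73 to 13.9 CPM at 36 h, with none called. The 6 muscle markers, of which 4 were tested, summed to 14.2 to 35.8 CPM at 50 h against 7.06 to 19.9 CPM at 36 h, again with none called. Of these 3 lists 1 muscle marker had an unadjusted p under 0.05, and DESeq2 and limma called none. Of the 5 tracheal and cuticle markers, Gasp alone was called, higher at 50 h, and verm had no count in these libraries. The list's median log2 fold change was 0.0, with 2 of the 5 positive. trh had 12.45, 12.86 and 6.502 CPM at 50 h, against 1.731, 14.01 and 16.78 CPM at 36 h. serp had 1.717, 5.534 and 1.69 CPM at 50 h, against 8.125, 0.7003 and 3.835 CPM at 36 h. The list summed to 19.74 to 56.09 CPM at 50 h against 11.85 to 22.77 CPM at 36 h. In such pools, fewer cells of a type and less RNA per cell cannot be told apart, and the part that cells other than neuroblasts play in the results was not tested.

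Between the ages 338 genes were called at an adjusted p under 0.05 (edgeR quasi-likelihood test, Benjamini-Hochberg), which is 3.27% of those tested. At 50 h 189 genes were higher (1.83%) and 149 were lower (1.44%). Counts of calls in the gene lists below are to be read against these shares. Of the higher genes 69 rose at least 2-fold, and of the lower genes 76 fell at least 2-fold. The median log2 fold change over all tested genes was 0.01. In 182 of the 189 higher genes and 145 of the 149 lower genes the 2 ages did not overlap. The calls were made from the same libraries, so this separation describes them and is no separate support. Over all tested genes, all 50 h libraries lay above all 36 h libraries in 9.85% of genes and below them in 9.41%. In all 6 fits that leave out 1 library, 79 of the higher and 91 of the lower genes stayed called. The lower genes were dominated by one group, the cytoplasmic ribosomal proteins, which made up 67 of the 149. A scaling to spike-in counts and cell number moved the median of all genes by 0.27 on the log2 scale and gave 88 higher and 18 lower genes, so the balance of higher against lower calls depends on the scaling.

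**Figure D1:**
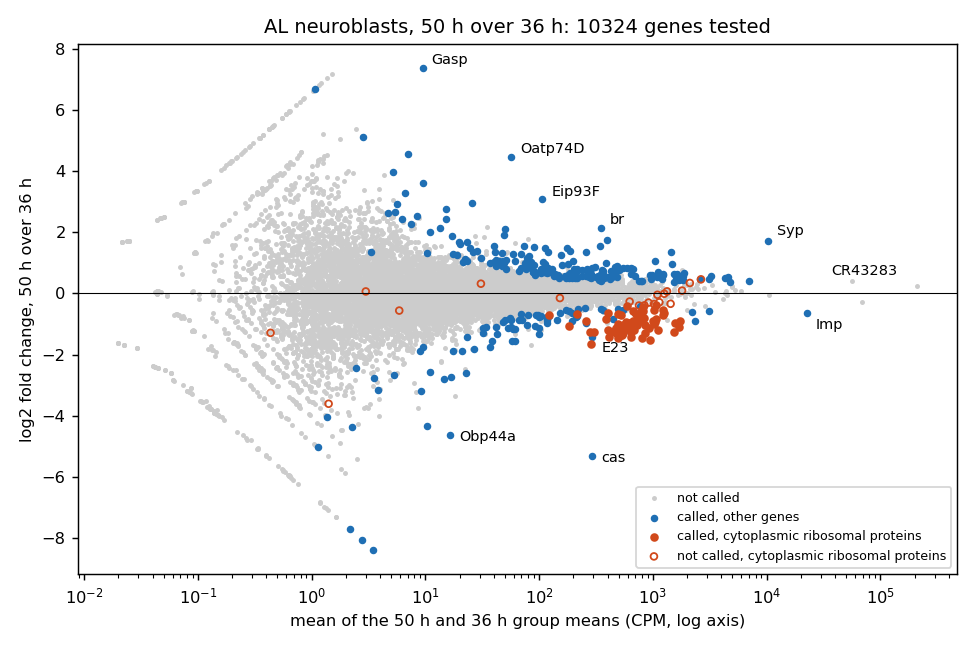
Each point is 1 of the 10324 tested genes, with the mean of the 50 h and 36 h group means in TMM-scaled CPM on a log x axis and the log2 fold change, 50 h over 36 h, on the y axis. Blue points are called genes, filled orange points are called cytoplasmic ribosomal proteins and open orange points are those not called. Of the 86 ribosomal protein genes 80 lie below 0, while Oatp74D (4.46), Eip93F (3.08) and cas (-5.33) lie far from 0.

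Of the 16 temporal factors tested, 4 rose (Syp, br, Eip93F and EcR) and 2 fell (cas and Imp) by edgeR. Syp, the late RNA-binding protein (chromosome 3R, 16582451 to 16631963, build dm3), had 15060, 15190 and 16830 CPM at 50 h, against 5058, 4286 and 4976 CPM at 36 h. All 50 h libraries lay far above all 36 h libraries, and the log2 fold change was 1.72 ± 0.23 (SE, adjusted p = 9.8e-05). Imp, the early RNA-binding protein (chromosome X, 10690246 to 10700889, dm3), had 21430, 16110 and 15400 CPM at 50 h, against 28080, 26020 and 28330 CPM at 36 h. The groups did not overlap, but Imp fell by only 0.64 ± 0.12 on the log2 scale (adjusted p = 0.00098). With spike-in and cell number scaling its log2 fold change was -0.36 with an adjusted p of 0.65, so the call for Imp was lost under that scaling. DESeq2 and limma, neither of which used the spike-in counts, also called Imp lower.

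Per length, in the deposited transcripts-per-million (TPM) values, the ratio of Imp to Syp was 1.18, 0.882 and 0.761 at 50 h, against 4.62, 5.05 and 4.73 at 36 h. The 2 transcripts were thus near equal at 50 h, whereas Imp exceeded Syp in every 36 h library. The ratio lay between 14.9 and 29.5 at 24 h and between 0.00888 and 0.0114 at 84 h. Over the 4 ages mean Imp was 32410, 27480, 17650 and 347 CPM, and mean Syp was 1419, 4773, 15690 and 28820 CPM. The change of Imp differed between this step and the step to 84 h by 5.03 ± 0.20 (SE) on the log2 scale (adjusted p = 5.6e-17). No such difference was called for Syp, with 0.84 (adjusted p = 0.36). The steps differ in length, and the changes compared are totals over each step, not rates.

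Among called genes with at least 10 CPM at the higher age and no overlap between the ages, the largest fall was that of cas (castor), a zinc-finger transcription factor that acts late in the embryonic temporal series. It had 8.58, 22.6 and 11.4 CPM at 50 h, against 678, 558 and 470 CPM at 36 h. Its level at 36 h was 40.0 times that at 50 h, and the log2 fold change was -5.33 ± 0.68 (adjusted p = 6.4e-05). It stood at 31.2 ± 8.94 CPM (SD) at 24 h and 57.2 ± 30.9 CPM at 84 h, so 36 h was the single high age of the 4. The other genes of the embryonic series were low or showed no call by edgeR. Kr, a zinc-finger factor, had 2.72, 0.748 and 1.3 CPM at 50 h, against 26.6, 4.73 and 13.8 CPM at 36 h (adjusted p = 0.059). Its libraries did not overlap between the ages, and DESeq2 called Kr lower while limma did not. hb had at most 8.05 CPM in any library of the 2 ages, nub at most 3.33 CPM, and pdm2 had no count in the 6 libraries. grh, which is active in late neuroblasts, had 962 ± 53.3 CPM at 50 h against 766 ± 85.8 CPM at 36 h (SD, adjusted p = 0.14). Here too the ages did not overlap, and limma called grh higher while DESeq2 did not. svp, an orphan nuclear receptor, had 316 ± 70.2 CPM at 50 h against 465 ± 167 CPM at 36 h, with overlapping libraries (adjusted p = 0.31). D (Dichaete), a Sox-box factor, had 304 ± 78.2 CPM at 50 h against 384 ± 37 CPM at 36 h (adjusted p = 0.76).

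chinmo, a BTB zinc-finger factor that marks early-born neurons and is under the control of Imp and Syp, had 2569, 2181 and 1931 CPM at 50 h, against 1956, 1904 and 2127 CPM at 36 h. These libraries overlapped and the log2 fold change was 0.16 ± 0.22 (adjusted p = 0.83). Its mean at 84 h was 608 ± 187 CPM (SD), and the change of this step differed from that of the following one by 2.03 (adjusted p = 0.0076). lin-28, an RNA-binding protein of early stages, had 61.7, 65.1 and 21.6 CPM at 50 h, against 102, 126 and 103 CPM at 36 h. All 50 h values were below all 36 h values, yet the difference was not called (log2 fold change -1.16 ± 0.50, adjusted p = 0.29). mamo, a factor of later-born mushroom body neurons, had 5.36 ± 4.48 CPM at 50 h against 2.47 ± 1.97 CPM at 36 h (SD, adjusted p = 0.68).

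**Figure D2:**
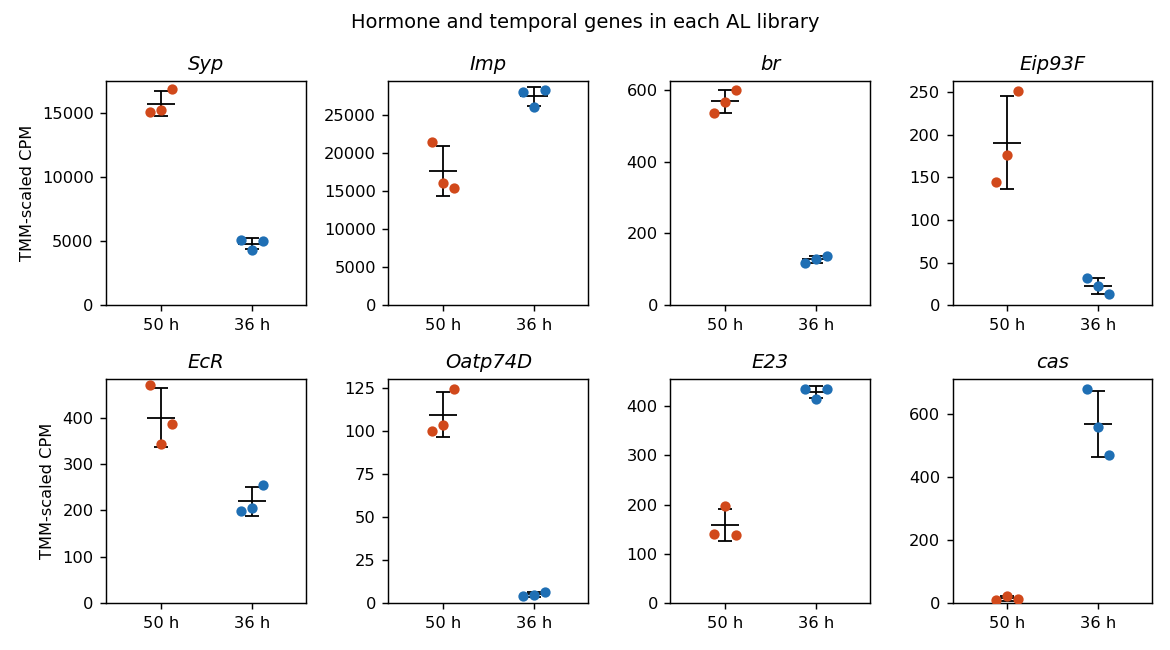
Each panel shows 1 gene in TMM-scaled CPM on a linear y axis from 0, with the 3 libraries at 50 h (orange, left) and the 3 at 36 h (blue, right), the mean as a long bar and the SD as whiskers. In all 8 panels the libraries of the ages do not overlap, with Syp, br, Eip93F, EcR and Oatp74D above and Imp, E23 and cas below at 50 h.

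Of the 23 ecdysone genes tested, 4 rose (Oatp74D, br, Eip93F and EcR) and 1 fell (E23), and br, Eip93F and EcR also stand in the list of temporal factors. The largest change was in Oatp74D (chromosome 3L, 17480218 to 17504793, dm3), the membrane transporter known as the ecdysone importer. It had 100, 103 and 124 CPM at 50 h, against 3.86, 4.38 and 6.47 CPM at 36 h. The 50 h mean was 22.3 times that of 36 h, with a log2 fold change of 4.46 ± 0.37 (adjusted p = 2.3e-11). Its mean was 3.45 CPM at 24 h and 20.6 CPM at 84 h, so 50 h was its highest age. The change of this step exceeded that of the step before by 3.96 (adjusted p = 4.3e-05) and that of the step after by 6.87 (adjusted p = 2e-12).

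EcR, the nuclear receptor that binds ecdysone, had 470, 344 and 387 CPM at 50 h, against 198, 206 and 255 CPM at 36 h. It rose by 0.87 ± 0.20 on the log2 scale (adjusted p = 0.0063), without overlap, and lost its call without 36 h replicate 1 or 50 h replicate 1 (adjusted p of up to 0.0606). Its mean at 84 h was 219 ± 28.3 CPM (SD), and the 2 steps differed by 1.74 (adjusted p = 0.003). usp, which pairs with EcR, had 39.8 CPM at 50 h against 26.7 CPM at 36 h (adjusted p = 0.44). br (chromosome X, 1516765 to 1539195, dm3) had 537, 566 and 600 CPM at 50 h, against 118, 128 and 137 CPM at 36 h. The 50 h mean was 4.44 times that of 36 h, with a log2 fold change of 2.15 ± 0.19 (adjusted p = 3.2e-10), the smallest adjusted p among the ecdysone genes after that of Oatp74D. Eip93F had 145, 176 and 251 CPM at 50 h, against 32, 22.9 and 12.9 CPM at 36 h, and rose by 3.08 ± 0.34 (adjusted p = 9.3e-06). Its mean at 84 h was 1029 ± 302 CPM (SD), whereas br stood at 445 ± 32.8 CPM at that age. For br the step differed from the following step by 2.50 (adjusted p = 8.6e-07), and for Eip93F no difference from either neighbouring step was called.

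E23, an ABC transporter gene induced early by ecdysone, moved in the other direction. It had 140, 196 and 138 CPM at 50 h, against 435, 416 and 436 CPM at 36 h, and fell by 1.44 ± 0.23 on the log2 scale (adjusted p = 2.9e-05). With spike-in and cell number scaling the value was -1.18 with an adjusted p of 0.0502. E23 averaged 174, 429, 158 and 5.13 CPM at 24, 36, 50 and 84 h. The remaining ecdysone genes were not called, among them the nuclear receptors Eip75B (444 CPM at 50 h against 364 CPM at 36 h, adjusted p = 0.68) and ftz-f1 (314 CPM at 50 h against 321 CPM at 36 h, adjusted p = 0.96). The coactivator tai had 1152 CPM at 50 h against 950 CPM at 36 h (adjusted p = 0.42). Juvenile hormone, the other insect hormone that sets the course of moults, is represented by 9 genes, of which none rose and 2 fell. These were Chd64 and FK506-bp1, whose proteins bind a juvenile hormone response element in flies. Chd64 had 174 ± 32.5 CPM at 50 h against 341 ± 30.7 CPM at 36 h (SD), and FK506-bp1 had 322 ± 51.5 CPM at 50 h against 580 ± 93.4 CPM at 36 h. The log2 fold changes were -0.97 (adjusted p = 9.4e-05) for Chd64 and -0.85 (adjusted p = 0.0035) for FK506-bp1, and with spike-in and cell number scaling the adjusted p was 0.31 for Chd64 and 0.44 for FK506-bp1. The hormone's receptor gene Met (19 CPM at 50 h against 15.2 CPM at 36 h) and its target Kr-h1 (206 CPM at 50 h against 179 CPM at 36 h) were not called.

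**Figure D3:**
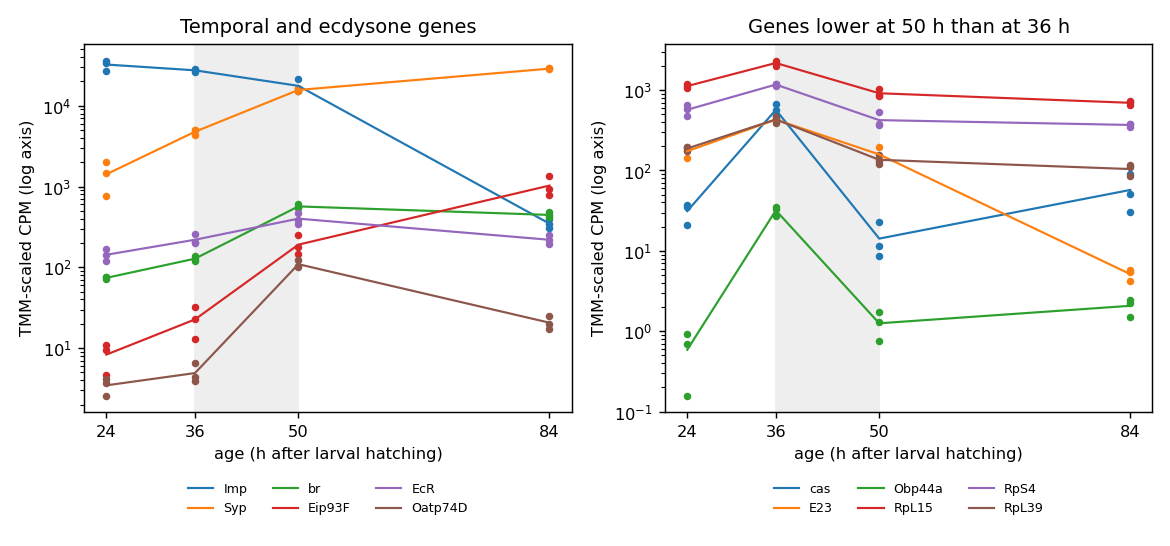
Lines join the mean TMM-scaled CPM (log y axis) of the AL libraries at 24, 36, 50 and 84 h, points are single libraries and the grey band marks the step from 36 to 50 h. Syp and Eip93F have a higher mean at each later age, Oatp74D is highest at 50 h, and cas, Obp44a, E23 and the ribosomal protein genes RpL15, RpS4 and RpL39 peak at 36 h.

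The cytoplasmic ribosomal proteins were the largest coordinated group. Of 86 tested, 67 fell and none rose by edgeR, and 80 had a negative log2 fold change. DESeq2 called 71 lower and none higher, and limma called 66 lower and 1, RpS7, higher. The list's median was -0.91 against 0.01 over all tested genes. Summed over the 88 in the table, they made up 47070, 48980 and 55150 CPM at 50 h, against 81890, 80470 and 82400 CPM at 36 h. As a share of gene counts this was 3.92%, 4.21% and 4.74% at 50 h, against 7.51%, 6.97% and 7.42% at 36 h. The sums were 62570, 56730 and 61190 CPM at 24 h and lay between 37730 and 42810 CPM at 84 h, so the 36 h libraries were the highest of the 4 ages, and 76 of the 86 genes had their highest mean there. The change of this step was below that of the preceding step for 67 of the 86 genes at an adjusted p under 0.05 and above it for 1, where lower calls took 1.85% and higher calls 1.51% of all tested genes. Against the following step 21 were lower and 1 higher, where lower calls took 0.387% and higher calls 1.05% of tested genes.

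RpL15, a protein of the large subunit, had 871, 846 and 1024 CPM at 50 h, against 2202, 2001 and 2319 CPM at 36 h (log2 fold change -1.25 ± 0.12, adjusted p = 3.8e-10). RpS4, of the small subunit, had 374, 366 and 529 CPM at 50 h, against 1140, 1188 and 1186 CPM at 36 h (-1.47 ± 0.14, adjusted p = 3.8e-10). RpL39 had the largest called fall of the list, with 120, 130 and 157 CPM at 50 h, against 387, 471 and 436 CPM at 36 h (-1.67 ± 0.16, adjusted p = 3.8e-10). In all 3 genes the highest 50 h library was below the lowest 36 h library by a wide margin. RpL41 fell by 1.09 and RpL29 by 1.29 on the log2 scale, and these 5 genes had the 5 smallest adjusted p among all lower genes. Proteins of the stalk fell too, RpLP1 to 489 CPM at 50 h, against 1393 CPM at 36 h, RpLP2 to 356 CPM at 50 h, against 729 CPM at 36 h, and RpLP0 to 381 CPM at 50 h, against 608 CPM at 36 h.

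The list was not uniform. Several members at high levels did not pass the edgeR test. RpS3 had 3068 CPM at 50 h against 2232 CPM at 36 h (adjusted p = 0.14), RpS7 had 2363 CPM at 50 h against 1865 CPM at 36 h (adjusted p = 0.11) and RpS3A had 1864 CPM at 50 h against 1749 CPM at 36 h (adjusted p = 0.80). RpL23A, RpS2 and RpL13 also had log2 fold changes between -0.05 and 0.07. Some paralogues with weak expression, RpL10Aa, RpS10a, RpS19b and RpS5b, had at most 7.02 CPM as a mean at either age and were not called. RpS14a (-1.15) and RpS14b (-0.89) are near-identical copies, so how the counting split their reads is uncertain, and both were called lower. Of the 86 genes 28 carry a small nucleolar RNA gene within them, and their median was -0.99 against -0.90 for the 58 that carry none.

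Ribosomal protein genes are short, so their change was set beside that of other genes of like length. The 81 of 86 with a length in the annotation spanned 288 to 3835 exonic bases, with a median of 916. In the length classes that hold most of them, 601 to 1000 and 1001 to 1500 bases, their medians were -0.94 and -0.67, while other genes of these classes had medians of -0.025 and -0.03. In the shortest class, up to 600 bases, all 9 fell with a median of -1.09, and the 397 other genes had a median of -0.004. With each library left out in turn, 63 to 65 of the 67 stayed lower. Under spike-in and cell number scaling 8 were called lower and the median of the list was -0.63.

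**Figure D4:**
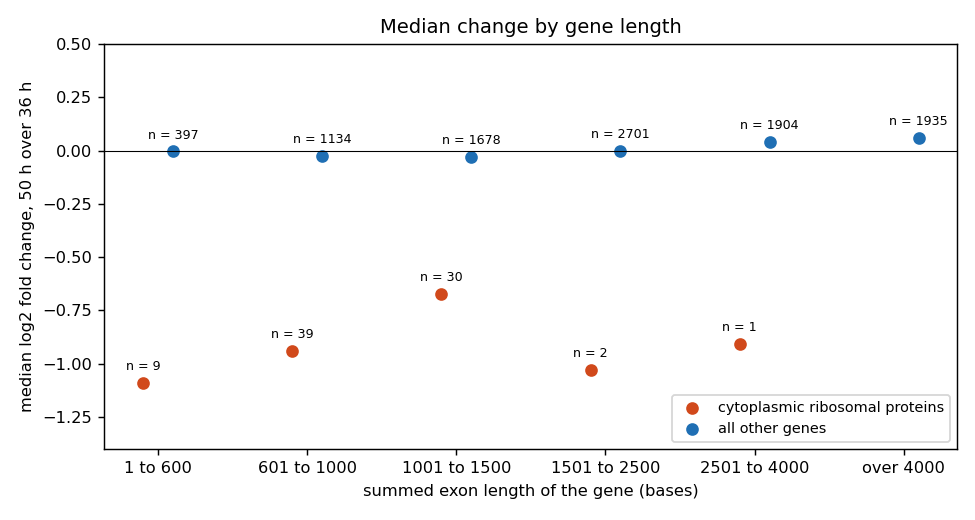
The median log2 fold change, 50 h over 36 h, is plotted by class of summed exon length in bases, for cytoplasmic ribosomal proteins (orange) and all other tested genes (blue), with the number of genes at each point. Other genes lie between -0.03 and 0.06 in every class, and the ribosomal proteins lie between -1.09 and -0.67.

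Other parts of the translation machinery moved less. Of 32 translation factors 3 fell and none rose, and all 3 are subunits of initiation factor eIF3. eIF3-S10 had 118 ± 15.7 CPM at 50 h against 184 ± 22.4 CPM at 36 h (SD, adjusted p = 0.0079), eIF-3p40 had 213 ± 8.33 CPM at 50 h against 298 ± 22.8 CPM at 36 h (adjusted p = 0.018), and eIF-3p66 had 178 ± 45.9 CPM at 50 h against 257 ± 32.3 CPM at 36 h (adjusted p = 0.041). These calls were fragile. eIF3-S10 lost its call without replicate 1 of either age (adjusted p of up to 0.0847). The other 2 lost it in 4 of 6 such fits (without 36 h replicate 3 and 50 h replicate 1 or 2, and for one each 36 h replicate 1 or 2, adjusted p of up to 0.353). With spike-in and cell number scaling none of the 32 was called. Of the 20 aminoacyl-tRNA synthetases none was called by edgeR (2 at an unadjusted p under 0.05), while DESeq2 called 2 lower, Aats-asn and Aats-tyr, and limma none. In edgeR the smallest p belonged to Aats-asn, with 31.7 ± 7.13 CPM at 50 h against 54.9 ± 5.39 CPM at 36 h (SD, adjusted p = 0.07). Of 72 mitochondrial ribosomal proteins 1 was called lower, mRpS25, with 0.715, 1.2 and 2.34 CPM at 50 h and 16.5, 2.1 and 8.87 CPM at 36 h. Its ages overlap, its call was lost without 36 h replicate 1 or 3 or 50 h replicate 1 or 2 (adjusted p of up to 0.251), and it overlaps CG14414 on the other strand, which had 1.88 times its counts. Of 22 genes of ribosome biogenesis and the Myc network 1 was called, Mnt, the partner of Max that opposes Myc. Mnt was higher at 50 h, with 568 ± 71.7 CPM against 362 ± 44 CPM at 36 h (SD, adjusted p = 0.031), and lost its call without 36 h replicate 2 or 3 or 50 h replicate 1 or 2 (adjusted p of up to 0.164). The Myc gene dm itself had 2317 ± 161 CPM at 50 h against 2090 ± 176 CPM at 36 h (adjusted p = 0.66). Of 32 proteasome subunits 2 fell, 6.2% of the list against 3.27% of all tested genes. Prosbeta2, a catalytic subunit, had 52 ± 6.65 CPM at 50 h against 106 ± 5.3 CPM at 36 h (adjusted p = 0.00058). Pros54, a ubiquitin receptor, had 35.7 ± 10.1 CPM at 50 h against 64.8 ± 10.4 CPM at 36 h (adjusted p = 0.036), and lost its call without 36 h replicate 2 or 3 or 50 h replicate 1 or 2 (adjusted p of up to 0.213).

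Some enzymes of glycolysis rose. Of 14 tested, 4 rose and none fell, and the list's median was 0.42 against 0.01 over all genes. Aldolase (Ald) had 544, 744 and 589 CPM at 50 h, against 319, 339 and 348 CPM at 36 h (log2 fold change 0.90 ± 0.14, adjusted p = 1.2e-05). Pyruvate kinase (PyK), which makes the last step, had 262, 313 and 323 CPM at 50 h, against 190, 159 and 175 CPM at 36 h (0.78 ± 0.15, adjusted p = 0.00045). Both genes lay without overlap above their 36 h values. Triose phosphate isomerase (Tpi) had 37.1, 77 and 67.1 CPM at 50 h, against 23.7, 36.6 and 26.6 CPM at 36 h (adjusted p = 0.0034), and its adjusted p was 0.0666 without 50 h replicate 2. Gapdh1 had 230, 211 and 212 CPM at 50 h, against 169, 140 and 147 CPM at 36 h (adjusted p = 0.026). It kept its call of the 6 such fits only in the one without 36 h replicate 1, and otherwise reached an adjusted p of up to 0.144. Its near copy Gapdh2 had 335 CPM at 50 h against 342 CPM at 36 h (adjusted p = 0.96). In 8 of the 14 genes all 50 h libraries lay above all 36 h libraries and in none below, against 9.85% above and 9.41% below over all tested genes.

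Of 26 subunits of the respiratory chain and ATP synthase 3 rose and none fell by edgeR, 11.5% of the list against 3.27% of all tested genes. DESeq2 called the same 3 higher and 5 lower (cype, ATPsyn-gamma, ATPsyn-d, ATPsyn-Cf6 and sun). In limma the same 3 were called higher and 1, ATPsyn-d, lower. The alpha subunit of ATP synthase, blw, had 1470 ± 198 CPM at 50 h against 979 ± 61.1 CPM at 36 h (SD, adjusted p = 0.00058). The Rieske protein RFeSP of complex III had 96.7 ± 4.98 CPM at 50 h against 56.2 ± 4.96 CPM at 36 h (adjusted p = 0.011), a call lost without replicate 1 of either age (adjusted p of up to 0.0804). CoVa, of cytochrome c oxidase, had 211 ± 27.4 CPM at 50 h against 141 ± 17.8 CPM at 36 h (adjusted p = 0.025), a call lost without 36 h replicate 2 or 3 or 50 h replicate 1 or 2 (adjusted p of up to 0.188). The list's median was -0.26, opposite in sign to its 3 edgeR calls, and 11 of the 26 had all 50 h libraries below all 36 h libraries and 6 had them above, against 9.41% below and 9.85% above over all tested genes. Of 21 genes of insulin and TOR signalling none was called by edgeR (2 at an unadjusted p under 0.05), while DESeq2 and limma each called 1 higher, Akt1. Akt1, its central kinase, had 328 ± 13.7 CPM at 50 h against 249 ± 32.9 CPM at 36 h (SD, adjusted p = 0.077), and Thor, the translation repressor 4E-BP, had 52.6 ± 20.7 CPM at 50 h against 83.6 ± 40.9 CPM at 36 h (adjusted p = 0.27).

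Several cyclins and other genes of the cell cycle rose. Of 30 cell cycle genes 5 were higher at 50 h (CycB3, E2f, stg, CycB and CycA) and none was lower, and all 5 stayed called in each fit that leaves out 1 library. This was 16.7% of the list, against 3.27% of all tested genes. CycB3, a mitotic cyclin, had 1360, 1585 and 1304 CPM at 50 h, against 680, 792 and 576 CPM at 36 h (log2 fold change 1.05 ± 0.13, adjusted p = 1.1e-07). String (stg), the Cdc25 phosphatase that triggers mitosis, had 543, 572 and 705 CPM at 50 h, against 348, 360 and 282 CPM at 36 h (0.88 ± 0.15, adjusted p = 7.0e-05). CycB had 318, 336 and 349 CPM at 50 h, against 177, 212 and 186 CPM at 36 h (0.80 ± 0.14, adjusted p = 8.0e-05). E2f, the factor that drives S-phase genes, had 1271, 1280 and 1616 CPM at 50 h, against 881, 858 and 804 CPM at 36 h (0.71 ± 0.12, adjusted p = 3.4e-05). In these 4 genes the ages did not overlap. CycA rose by 0.57 (adjusted p = 0.00049), while the G1 cyclin CycE had 1159 ± 105 CPM at 50 h against 1018 ± 26.3 CPM at 36 h (SD, adjusted p = 0.62). Over the whole list the median was 0.14, and 16 of the 30 had a positive log2 fold change.

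Of 32 genes of the spindle and kinetochore 2 rose and none fell by edgeR, 6.2% of the list against 3.27% of all tested genes. DESeq2 called the same 2 higher and 2 lower, Nuf2 and barr, and limma called only the 2 higher. All 50 h libraries lay above all 36 h libraries in 4 of the 32 and below them in 4. Abnormal spindle (asp), a protein of the spindle poles, had 447 ± 56.4 CPM at 50 h against 264 ± 23.4 CPM at 36 h (SD, adjusted p = 0.00018). SAK, the kinase that starts centriole duplication, had 68.9 ± 9.89 CPM at 50 h against 32.5 ± 5.21 CPM at 36 h (adjusted p = 0.0088). Its call was lost without 36 h replicate 1 or 3 or 50 h replicate 1 (adjusted p of up to 0.0639), and it overlaps M6 on the other strand, with 0.493 times its counts. Of 36 DNA replication genes 1 was called in each direction, and both calls were fragile. dup, the licensing factor Cdt1, had 322 ± 14.6 CPM at 50 h against 224 ± 26.5 CPM at 36 h (adjusted p = 0.022), a call lost without 36 h replicate 1 or 2 or 50 h replicate 2 or 3 (adjusted p of up to 0.148). Mcm2, of the replicative helicase, had 60.4 ± 13.6 CPM at 50 h against 99.5 ± 9.3 CPM at 36 h (adjusted p = 0.047), a call lost without any 1 of the 6 libraries (adjusted p of up to 0.276).

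Of 23 genes of neuroblast identity and asymmetric division 3 rose and none fell, 13.0% of the list against 3.27% of all tested genes. stau, which carries prospero RNA into the daughter cell, had 1802, 1813 and 2207 CPM at 50 h, against 987, 1058 and 951 CPM at 36 h (log2 fold change 0.96 ± 0.12, adjusted p = 7.9e-08). numb, the segregating inhibitor of Notch, had 669, 743 and 675 CPM at 50 h, against 456, 362 and 355 CPM at 36 h (0.83 ± 0.14, adjusted p = 5.9e-05). pros, the homeodomain factor that ends self-renewal in the daughter cell, had 2205, 1965 and 1731 CPM at 50 h, against 1412, 1327 and 1093 CPM at 36 h (0.62 ± 0.13, adjusted p = 0.0019). All 3 lay without overlap above 36 h. pros is also 1 of the 8 markers of newborn neurons and ganglion mother cells, which summed to 2239 to 2803 CPM at 50 h against 1484 to 1883 CPM at 36 h, and no other of the 8 was called. With spike-in and cell number scaling pros had an adjusted p of 0.0996. The adaptor mira, which carries Prospero protein, had 355 ± 63.3 CPM at 50 h against 322 ± 23.4 CPM at 36 h (SD, adjusted p = 0.76). Of 24 genes of the Notch pathway 1 was called, neur, the ubiquitin ligase that activates the Notch ligand Delta. It had 248, 269 and 255 CPM at 50 h, against 147, 154 and 140 CPM at 36 h (0.81 ± 0.16, adjusted p = 0.00044).

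Patterning genes gave single calls. SoxN, a Sox factor of the neuroectoderm, had 532, 535 and 492 CPM at 50 h, against 244, 265 and 277 CPM at 36 h (adjusted p = 0.002), and was the 1 called gene of 8 in its family. Of 8 AL lineage transcription factors the homeobox gene oc (orthodenticle) was called, with 11.3, 3.59 and 16.5 CPM at 50 h, against 2.93, 1.93 and 1.08 CPM at 36 h (adjusted p = 0.0033), and it averaged 72.8 CPM at 84 h. In a fit to the 2 ages alone its adjusted p was 0.0648. Of 10 mushroom body factors the homeobox gene Dr was called, with 58.4, 92.1 and 84.7 CPM at 50 h, against 18.6, 17.3 and 26.5 CPM at 36 h (adjusted p = 0.021), and lost its call without 36 h replicate 1 or 2 or 50 h replicate 2 or 3 (adjusted p of up to 0.111). None of the 4 tested Hox genes was called by edgeR, DESeq2 or limma, and none had an unadjusted p under 0.05 in edgeR. All 8 in the table summed to 8.23 to 14.2 CPM at 50 h against 2.66 to 16.6 CPM at 36 h. Antp had 3 counts over the 50 h libraries and 12 over those of 36 h, and Abd-B averaged 1.02 CPM at 50 h against 0.375 CPM at 36 h. Of 16 genes of Activin and BMP signalling none was called by edgeR, DESeq2 or limma, and 3 had an unadjusted p under 0.05 in edgeR. The BMP-induced inhibitor Dad had 41.4, 97.8 and 33.3 CPM at 50 h, against 4, 10.2 and 23.6 CPM at 36 h (adjusted p = 0.19), without overlap, and the effector Mad had 92 ± 9.04 CPM at 50 h against 62.2 ± 4.78 CPM at 36 h (SD, adjusted p = 0.23). Of 10 genes of Hedgehog signalling none was called by edgeR (4 at an unadjusted p under 0.05) or limma, while DESeq2 called 2 higher, ci and rdx. The transcription factor ci had the smallest edgeR p, with 154, 215 and 139 CPM at 50 h, against 98.2, 114 and 116 CPM at 36 h (adjusted p = 0.059). rdx, an adaptor that degrades Ci protein, had 173 ± 10.9 CPM at 50 h against 121 ± 5.97 CPM at 36 h (adjusted p = 0.088).

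Of 32 RNA-binding proteins 4 rose (stau, Hrb98DE, rump and Syp) and 1 fell (Imp). Hrb98DE, an hnRNP A protein, had 1479 ± 20.8 CPM at 50 h against 954 ± 76.2 CPM at 36 h (SD, adjusted p = 2.5e-05). rump, an hnRNP M protein, had 536 ± 76.3 CPM at 50 h against 323 ± 29.5 CPM at 36 h (adjusted p = 5.3e-05), and it overlaps CG8149 on the other strand, with 0.246 times its counts. Of 16 cell death genes 2 rose by edgeR, both known to promote apoptosis, and none fell. This was 12.5% of the list, against 3.27% of all tested genes. DESeq2 called the same 2 higher and 2 lower, W (hid) and Iap2, and limma called only the 2 higher. All 50 h libraries lay above all 36 h libraries in 3 of the 16 and below them in 3. The effector caspase Ice had 52.1, 83.6 and 42.3 CPM at 50 h, against 16.5, 18.4 and 26 CPM at 36 h (log2 fold change 1.54 ± 0.27, adjusted p = 8.5e-05). grim, which releases caspases from their inhibitor, had 5.01, 32 and 15.5 CPM at 50 h, against 0.4, 1.58 and 2.28 CPM at 36 h (adjusted p = 0.0081). Its call was lost without 36 h replicate 1 or 50 h replicate 2 (adjusted p of up to 0.126). Of 51 adhesion and guidance receptors 3 rose and none fell by edgeR, 5.9% of the list against 3.27% of all tested genes. The list's median was -0.04, and DESeq2 called 4 higher and 1 lower. Fas3, a homophilic adhesion protein, had 92.1, 79.9 and 70 CPM at 50 h, against 9.06, 16.6 and 30.8 CPM at 36 h (2.09 ± 0.42, adjusted p = 0.00077), and averaged 13.5 CPM at 84 h. The Wingless receptor fz2 had 262 ± 32.7 CPM at 50 h against 161 ± 10.8 CPM at 36 h (SD, adjusted p = 0.021). The receptor Toll (Tl) had 18.7, 0.897 and 9.62 CPM at 50 h, against 1.07, 0.35 and 0.36 CPM at 36 h (adjusted p = 0.025), with overlap. fz2 and Tl each lost the call in 4 fits (without 36 h replicate 1 or 3 or 50 h replicate 1, for fz2 also 50 h replicate 2 and for Tl also 36 h replicate 2, adjusted p of up to 0.151).

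Of 26 glutathione S-transferases, detoxifying enzymes, 2 fell and none rose, 7.7% of the list against 3.27% of all tested genes. GstE1 had 15.9, 28.9 and 13.5 CPM at 50 h, against 56.6, 75.8 and 39.8 CPM at 36 h (adjusted p = 0.0029). GstD3 had 15, 18.7 and 17.2 CPM at 50 h, against 52.1, 53 and 67.7 CPM at 36 h (adjusted p = 0.0058), and belongs to a cluster of similar genes, so its reads may be split among them. Of 30 Polycomb and trithorax genes 1 was called, ph-d, with 339 ± 82.2 CPM at 50 h against 216 ± 7.12 CPM at 36 h (SD, adjusted p = 0.011). It has a near-identical copy next to it, so its count is uncertain, and it lost its call without 36 h replicate 2 or 50 h replicate 1 (adjusted p of up to 0.199). Of 19 genes of the heat shock and dissociation response none was called by edgeR, DESeq2 or limma, and 3 had an unadjusted p under 0.05 in edgeR. The sums of all 22 in the table were 10940 to 13590 CPM at 50 h against 11690 to 17600 CPM at 36 h, with Hsp83 at 2469 ± 408 CPM at 50 h against 3265 ± 622 CPM at 36 h (SD, adjusted p = 0.083). Hsp67Bc, a small heat shock protein, had 0.143 to 2.47 CPM at 50 h against 1.47 to 18.6 CPM at 36 h (adjusted p = 0.19). Of 11 genes of dosage compensation and sex none was called by edgeR, DESeq2 or limma, and 1 had an unadjusted p under 0.05 in edgeR. roX1, the male-specific noncoding RNA of dosage compensation, had 5336 to 5541 CPM at 50 h against 4575 to 4596 CPM at 36 h (adjusted p = 0.2).

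**Figure D5:**
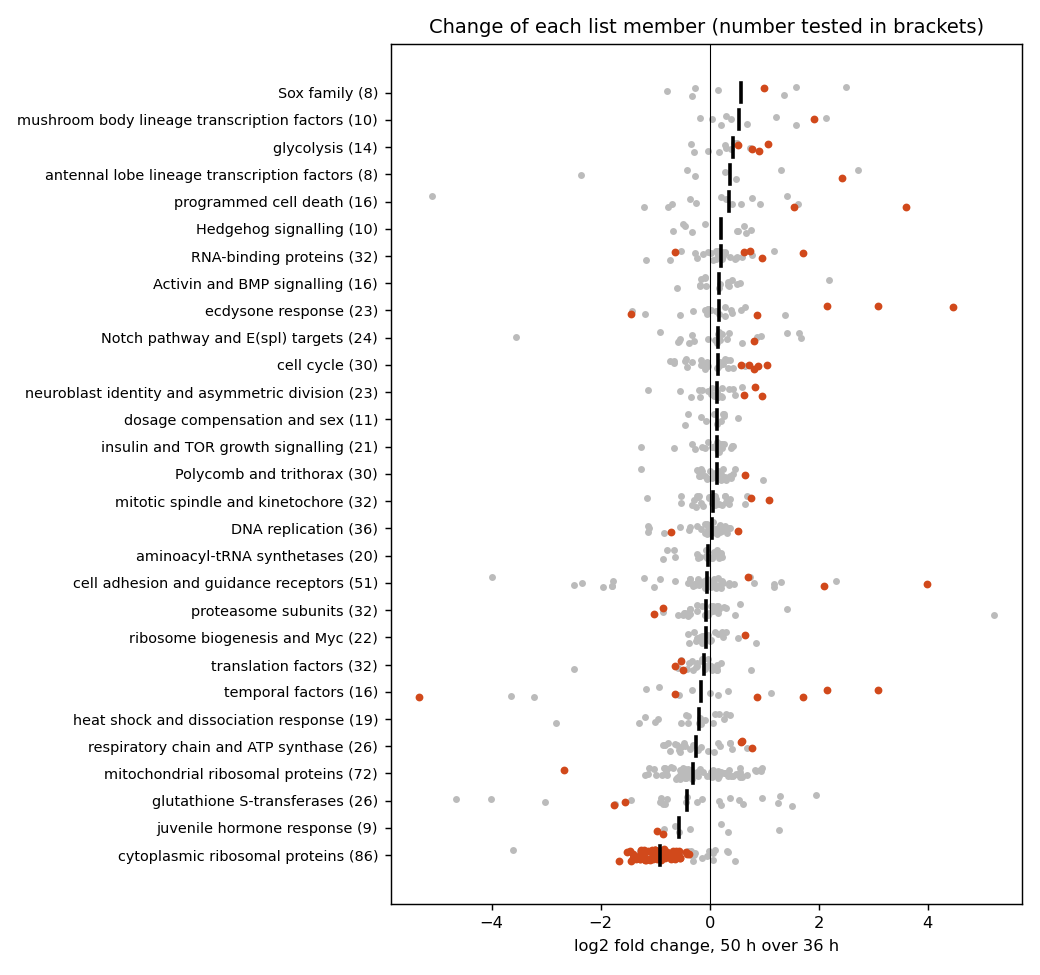
Each row is 1 gene list with its number of tested genes in brackets, each point is the log2 fold change, 50 h over 36 h, of 1 member (orange where called, grey where not), and the black bar is the list's median. Most medians lie near 0, cytoplasmic ribosomal proteins have a median of -0.91 at the bottom, and glycolysis has one of 0.42 near the top.

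Outside the lists, the most significant rise of all genes after that of Oatp74D was that of ytr, with 2046, 2257 and 1898 CPM at 50 h, against 771, 865 and 790 CPM at 36 h (log2 fold change 1.35 ± 0.12, adjusted p = 1.3e-10). The unnamed genes CG16879 (496 to 545 CPM at 50 h against 132 to 221 CPM at 36 h, adjusted p = 8.3e-09) and CG13305 (331 to 429 CPM at 50 h against 114 to 166 CPM at 36 h, adjusted p = 7.9e-09) followed. All 3 had lower means at 36 h than at 24 h, so that the change of this step was above that of the preceding one (adjusted p of 1.3e-06 for ytr, 2.3e-06 for CG16879 and 8.4e-06 for CG13305).

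By size, the highest called rise was in Gasp, a chitin-binding protein of the tracheal cuticle, with 4.58, 32.3 and 19.5 CPM at 50 h, against 0, 0.175 and 0.12 CPM at 36 h. It had 398 counts at 50 h and 2 at 36 h, so its fitted log2 value depends on the prior count. The ratio of scaled counts was 201 with a 95% counting interval of 55.2 to 1660, which covers counting error only and not the spread between libraries. Ca-alpha1D, a subunit of the L-type calcium channel, had 6.72, 13.6 and 20.5 CPM at 50 h, against 1.07, 0.35 and 0.24 CPM at 36 h (4.57 ± 0.74, adjusted p = 2.4e-05), and averaged 14.3 CPM at 24 h, so 36 h was its low point. CG13023 had 88, 23.8 and 24.2 CPM at 50 h, against 1.73, 5.78 and 9.95 CPM at 36 h (adjusted p = 0.00092). vas, a germline RNA helicase, had 26, 33.7 and 20.1 CPM at 50 h, against 5.06, 2.98 and 3.6 CPM at 36 h (adjusted p = 8.2e-07). It overlaps vig on the other strand, which had 33.8 times its counts and a log2 fold change of -0.10, and reads of the 2 cannot be told apart without strand. Kul, a metalloprotease of the Kuzbanian family, averaged 14.4 CPM at 50 h against 2.46 CPM at 36 h (adjusted p = 0.02), and sas, a cell-surface protein, 25.4 CPM at 50 h against 4.74 CPM at 36 h (adjusted p = 0.031). Kul lost its call in 4 fits and sas in 5 (without any single 36 h library or 50 h replicate 2, and for sas also 50 h replicate 3, adjusted p of up to 0.147).

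Among the lower genes, Obp44a, an odorant-binding protein, had 1.72, 0.748 and 1.3 CPM at 50 h, against 27.3, 34.8 and 33.6 CPM at 36 h (log2 fold change -4.64 ± 0.69, adjusted p = 6.0e-06). Its mean was 0.588 CPM at 24 h and 2.07 CPM at 84 h, so like cas it was high at 36 h alone of the 4 ages. LanB1, a laminin chain of the basement membrane, had 4.72, 5.24 and 3.25 CPM at 50 h, against 29.7, 23.8 and 33.3 CPM at 36 h (-2.71 ± 0.54, adjusted p = 0.00066). dysc, a PDZ-domain protein, had 8.3, 8.08 and 3.12 CPM at 50 h, against 39.3, 38.7 and 39.9 CPM at 36 h (-2.60 ± 0.39, adjusted p = 1.4e-05), after 173 ± 47 CPM (SD) at 24 h. Tom7, of the import pore of the outer mitochondrial membrane, had 12.3, 10 and 13.4 CPM at 50 h, against 40.8, 39 and 45.5 CPM at 36 h (-1.81 ± 0.31, adjusted p = 8.3e-05). CG10979 averaged 8.99 CPM at 50 h against 33.2 CPM at 36 h (adjusted p = 0.0013). The other 4 of the 10 lowest lost their call in at least 1 fit that leaves out a library. CG7900 averaged 1.82 CPM at 50 h against 16.6 CPM at 36 h, CG5036 3.17 CPM at 50 h against 18.8 CPM at 36 h, CG11982 7.49 CPM at 50 h against 27.7 CPM at 36 h, and the peroxisomal import protein Pex13 3.83 CPM at 50 h against 14.2 CPM at 36 h. All 4 lost it without 50 h replicate 1. CG7900 and Pex13 also lost it without 36 h replicate 1 or 2, CG5036 without 36 h replicate 3, CG5036 and Pex13 without 50 h replicate 2, and CG7900 and CG5036 without 50 h replicate 3, with adjusted p of up to 0.477.

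The single most abundant transcript was CR43283, a long noncoding RNA also known as cherub. It took 18.8% to 20.7% of gene counts at 50 h and 16.6% to 18.7% at 36 h. Its level was 248900, 224100 and 218400 CPM at 50 h, against 180900, 194300 and 207300 CPM at 36 h, without overlap, and the log2 fold change of 0.25 ± 0.17 was not called (adjusted p = 0.57). At 24 h its mean was 106300 CPM and at 84 h it was 79580 CPM, and the change of this step exceeded that of the following one by 1.78 (adjusted p = 0.0025).

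The step was also compared, in the same fit, with the AL step before it (24 to 36 h) and the one after it (50 to 84 h). These steps differ in length, and total changes were compared, not rates, here and wherever steps are compared above and below. The change differed from the preceding step for 347 genes (3.36%) and from the following step for 148 (1.43%). These differences share the 36 h or the 50 h libraries with the step itself, so a value at 1 age enters both sides. Of the 189 genes that were higher at 50 h, 108 differed from the preceding step and 33 from the following one. Of them 137 had their lowest mean of the 4 ages at 36 h, 109 their highest at 84 h and 71 at 50 h. Of the 149 genes that were lower, 115 differed from the preceding step and 38 from the following one, and 140 had their highest mean at 36 h. Since genes were picked here for being low or high at one of the 2 ages, these counts describe the shape of the calls only.

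Genes with the largest contrast to the preceding step were, on the side of a rise, Ca-alpha1D (9.20), CG14355 (5.21), Oatp74D (3.96), CG11321 (3.79) and pxb (3.66), as differences of log2 changes. CG14355 was itself not called between 50 h and 36 h (7.78 CPM at 50 h against 1.73 CPM at 36 h, adjusted p = 0.17). pxb averaged 41 CPM at 50 h against 15.8 CPM at 36 h, after 77.2 CPM at 24 h, and CG11321 17.6 CPM at 50 h against 4.41 CPM at 36 h, after 15.3 CPM. On the side of a fall they were Obp44a (-10.35), cas (-9.51), cngl (-6.58), Hs3st-A (-5.45) and fok (-5.04). cngl, a gene related to cyclic nucleotide-gated channels, had 0.143, 0.299 and 2.34 CPM at 50 h, against 2.13, 19.6 and 37 CPM at 36 h, with overlap. fok averaged 4.37 CPM at 50 h against 14.6 CPM at 36 h, and overlaps neb on the other strand, with 2.48 times its counts. The 50 h against 36 h calls of CG11321, cngl and fok were each lost in 4 fits (adjusted p of up to 0.234). The library whose loss ended the call was 36 h replicate 1 or 2 or 50 h replicate 2 or 3 for CG11321, 36 h replicate 2 or 3 or 50 h replicate 1 or 2 for cngl, and 36 h replicate 1 or 3 or 50 h replicate 2 or 3 for fok. Hs3st-A, a heparan sulfate sulfotransferase, was not called at the step (3.49 CPM at 50 h against 12.2 CPM at 36 h, adjusted p = 0.35).

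Against the following step the largest differences on the side of a rise were Gasp (8.95), Oatp74D (6.87), Ca-alpha1D (5.86), CG42324 (5.67) and CG44153 (5.58). CG42324 averaged 94.5 CPM at 50 h against 46.6 CPM at 36 h, with 3.69 CPM at 84 h. CG44153 averaged 11 CPM at 50 h against 3.38 CPM at 36 h, with 0.715 CPM at 84 h, and neither was called at the step. On the side of a fall they were cas (-7.34), wun2 (-6.59), Obp44a (-5.36), Pex13 (-3.56) and CG10979 (-3.47). wun2, a lipid phosphate phosphatase, averaged 0.431 CPM at 50 h against 1.55 CPM at 36 h, with 11.9 CPM at 84 h, and was not called at the step (adjusted p = 0.15).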

How the data were processed

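Per the labels' protocols, RNA of sorted AL neuroblasts went through NuGEN Ovation V2 amplification and Encore library construction, with ERCC spike-in RNA added. The authors deposited whole-number counts for every gene in each library, and the same genes as TPM values. Tools listed in the submitters' processing notes are HTSeq 0.6.1p1, STAR 2.4.0i, Bowtie2 2.1.0, cutadapt 1.7.1 and CASAVA, with the builds dm3 and mm10. Their order, the annotation and whether counting used strand are not stated there, so overlapping genes on the other strand are named beside the values they touch. The count table has 15437 rows, of which 15339 name genes and 92 name spike-in RNAs, while 5 HTSeq summary rows and 1 unnamed row were left out. Reads with no feature took 10.4% to 11.6% of all rows at 50 h and 8.47% to 10.2% at 36 h.

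Counts were fitted with the quasi-likelihood test of edgeR 4.0.16 (R 4.3.3, TMM scaling, filterByExpr, robust estimation) over all 24 libraries with 1 mean per group (16 residual degrees of freedom, common biological coefficient of variation 0.471). Contrasts were 50 h against 36 h and its difference from the steps before and after it. The SE of a log2 value was derived as its size divided by the square root of the test's F statistic. P-values were adjusted over 10324 genes with a threshold of 0.05. They measure the spread between these libraries, which may be technical, since the labels do not tie the libraries to separate cultures. The procedure was tested on simulated data. Gene lengths are exon unions of the reference annotation, matched by identifier for 95.2% of tested genes, and carry no coordinates. Identifiers are missing for 232 genes, and 5 symbols stored as dates were restored. Positions are those of the deposited table.

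Named genes were the 10 highest and 10 lowest called log2 fold changes (at least 10 CPM at the higher age, no overlap between ages), the 5 smallest adjusted p in each direction, all temporal factors, up to 4 called members of every other list (2 by smallest p where none was called), CR43283, and the 5 highest and 5 lowest called differences between steps. A few uncalled members of the lists were named for comparison after their values were seen. The members, the lists and the rule were chosen with earlier results of these data known. Other settings were DESeq2 1.42.0, limma 3.58.1 on log2(TPM + 1), other scalings and filters, a replicate block, and leaving out each library.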

Additional observations from a re-analysis of the deposited data

Results flagged for a closer look

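Some named genes moved at this step in the direction opposite to a neighbouring step, by at least 1 on the log2 scale each way, with a tested difference between the steps (edgeR quasi-likelihood test, adjusted p under 0.05). A gene that is high or low at 36 h or at 50 h alone meets this by construction, because the neighbouring steps share those libraries. Values are log2 changes of this step minus those of the other, not scaled to the length of the steps.

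Against the step from 24 to 36 h, the genes that were higher at 50 h were Ca-alpha1D (9.20, adjusted p = 1.1e-05), CG11321 (3.79, adjusted p = 0.028) and pxb (3.66, adjusted p = 5.1e-07), each of which had a lower mean at 36 h than at 24 h. The genes that were lower at 50 h had a higher mean at 36 h than at 24 h. They were Obp44a (-10.35, adjusted p = 2.1e-09), cas (-9.51, adjusted p = 6.9e-06), cngl (-6.58, adjusted p = 0.029), fok (-5.04, adjusted p = 4.9e-05), CG7900 (-4.38, adjusted p = 0.043), Tom7 (-3.01, adjusted p = 6.1e-05), RpL39 (-2.87, adjusted p = 1.7e-10), E23 (-2.74, adjusted p = 1.8e-06) and RpS4 (-2.51, adjusted p = 1.9e-10).

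Against the step from 50 to 84 h, the genes that were higher at 50 h and had a lower mean at 84 h than at 50 h were Gasp (8.95, adjusted p = 0.00038), Oatp74D (6.87, adjusted p = 2e-12), Ca-alpha1D (5.86, adjusted p = 0.0008), grim (5.32, adjusted p = 0.023) and Fas3 (4.67, adjusted p = 2e-05). Those that were lower at 50 h and had a higher mean at 84 h than at 50 h were cas (-7.34, adjusted p = 0.0041), Pex13 (-3.56, adjusted p = 0.024) and CG10979 (-3.47, adjusted p = 0.0043).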

How the results depend on the processing

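Beside the 338 genes called by edgeR between 50 h and 36 h, DESeq2 called 526 (289 higher, 237 lower), with 331 shared in direction, and spike-in and cell number scaling, chosen after seeing the data, called 106 (88 higher, 18 lower), with 99 shared. With limma on log2(TPM + 1), 279 genes were higher and 123 lower. The planned form of the spike-in scaling was not run, because it divided by the cell number and so was no scale per cell. Leaving out 1 library gave 234 to 324 calls, 117 to 171 of them higher and 112 to 153 lower. The difference from the preceding step was called for 347 genes, 50 with spike-in and cell number scaling and 202 to 373 without 1 library. The difference from the following step was called for 148 genes, 280 with no low count filter, 256 with DESeq2, 56 with limma on log2(TPM + 1), 34 with spike-in and cell number scaling and 59 to 178 without 1 library. The cause of these shifts was not tested. No called value of a named gene reversed. Of the 77 called named genes, 48 stayed called without any 1 library, 63 with limma and 39 with spike-in and cell number scaling. The labels do not say whether equal replicate numbers pair the samples. Correlations of deviations from the group means were -0.014, 0.015 and -0.092 for equal numbers and -0.045 to 0.061 otherwise. With 3 libraries per age these values cannot decide whether a pairing exists. A replicate block gave 335 calls for the step, 330 against the preceding and 131 against the following step, and 455, 292 and 167 in fits to the ages concerned, where the fits without the block gave 389, 296 and 198.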
